A study of Homo sapiens with 24 samples.

Results

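Semaphorins, plexins and neuropilins were followed as 1 signalling family through 24 RNA sequencing libraries from 3 human cancer cell lines. Members were taken by symbol from the deposited gene tables, as SEMA with a digit and a letter, PLXNA, PLXNB, PLXNC or PLXND with a digit, and NRP1 and NRP2. This gave 31 genes of 26346, made up of 20 semaphorins, 9 plexins and 2 neuropilins. VCaP and LNCaP come from prostate cancer. SW13 comes from an adrenal carcinoma and is known for making little BRG1, the ATPase of the BAF chromatin remodeler. By its title, the study concerns the binding of the ETS transcription factor fusion TMPRSS2-ERG to BAF complexes. VCaP cells, whose own ERG is driven by that fusion, carried the hairpin shERG, shARID1A (against a BAF subunit) or the control shCt. With 1 hairpin name per target, effects of a hairpin on other genes cannot be told apart from loss of its target. LNCaP cells carried ERG, ETV1 (another ETS factor) or the Empty vector. SW13 cells carried 2 constructs at once, V5-tagged ERG or Empty beside GFP, BRG1 or BRG1-K785R, a BRG1 with a changed ATPase site. Every culture had been exposed to lentivirus for 48 hours and kept under drug selection for 8 days (VCaP, puromycin), 4 days (LNCaP, blasticidin) or 2 days (SW13, both drugs). The SW13 control construct is GFP in the sample titles and luciferase in the treatment protocol, and the title is followed here. Reads of a construct cannot be told apart from those of the chromosomal gene. The 12 groups held 2 libraries each, from separate infections, selections and cultures.

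Semaphorins are secreted or membrane-bound guidance signals, first known for repelling growing axons. Plexins are their signalling receptors and act on small GTPases and the cytoskeleton. Most secreted (class 3) semaphorins need a neuropilin, which forms the receptor complex with a plexin, whereas the membrane-bound classes mostly bind plexins directly. Neuropilins also bind vascular endothelial growth factors (VEGF) and assist their receptors. In carcinomas, prostate cancer included, the family is known for effects on migration, invasion and vessel growth.

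Libraries held 19754265 to 41996681 counted reads. A level is given as CPM, the reads of a gene per 1000000 reads counted in its library, and for a group as mean ± SD (n = 2). The targeted genes moved as their labels say. ERG averaged 342 CPM with shCt and 84.5 with shERG, ARID1A 250.5 with shCt and 73.6 with shARID1A, and SMARCA4, which encodes BRG1, 28.5 in SW13 GFP Empty and 2175 in SW13 BRG1 Empty. ERG was also lower with shARID1A, at 240.3 CPM. Nor was SMARCA4 constant in VCaP. From a control mean of 153.7 ± 0.51 CPM it rose under shERG to 245.3 ± 1.3, and under shARID1A it fell to 123.5 ± 2.2. ARID1A itself was slightly lower under shERG, averaging 240.5 CPM. The part of these shifts in the VCaP changes below was not tested. LNCaP libraries with the ERG construct averaged 977 CPM of ERG against 0.448 in Empty, and those with ETV1 3688 CPM of ETV1 against 579. The Empty libraries of LNCaP were thus not free of ETV1. ETV1 averaged 473 CPM with the ERG construct, and ERG 1.07 CPM with the ETV1 construct. SMARCA4 stood at 2110 CPM in BRG1-K785R Empty and at 1423 in BRG1-K785R ERG, so the mutant's level differed between the groups compared. All 7 prostate luminal markers were read in VCaP and LNCaP. Of 7 adrenal cortex markers, CYP11B1 and MC2R were at 0 in every SW13 group.

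The leading ligands differed between the lines' control groups, apart from SEMA3C, which was among them in every line. Genes were compared with each other by the deposited RPKM, which divides reads by gene length and library total. SW13 GFP Empty was led by 3 secreted semaphorins, SEMA3D at 63.4 ± 0.45 RPKM, SEMA3A at 62.1 ± 3.8 and SEMA3C at 57.7 ± 4.2. Neighbours in that order were no further apart than about their spread. SEMA3A, the classic axon repellent, had at most 15 reads in any VCaP or LNCaP library. VCaP shCt was led by the membrane ligand SEMA6A (31.7 ± 0.66 RPKM), SEMA3C (29.4 ± 0.098) and SEMA4A (25.1 ± 0.68). LNCaP Empty held SEMA3C (40.7 ± 1.8 RPKM) and SEMA6D (15.7 ± 0.31), a membrane ligand of plexin A1 that had 0 reads in both SW13 GFP Empty libraries.

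Among receptors, PLXNB2 had the highest level per length of the plexins in the control groups, with 37.7 ± 1.0 RPKM in VCaP shCt, 79.3 ± 2.7 in LNCaP Empty and 26.7 ± 2.6 in SW13 GFP Empty. It encodes plexin B2, a receptor of SEMA4C. NRP1 set the lines apart: it stood at 44.1 ± 0.83 RPKM in LNCaP Empty, next to PLXNB2 in order, and had 1 and 4 reads in the SW13 GFP Empty libraries. The lines were grown and selected differently and were not tested against each other.

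**Figure D1:**
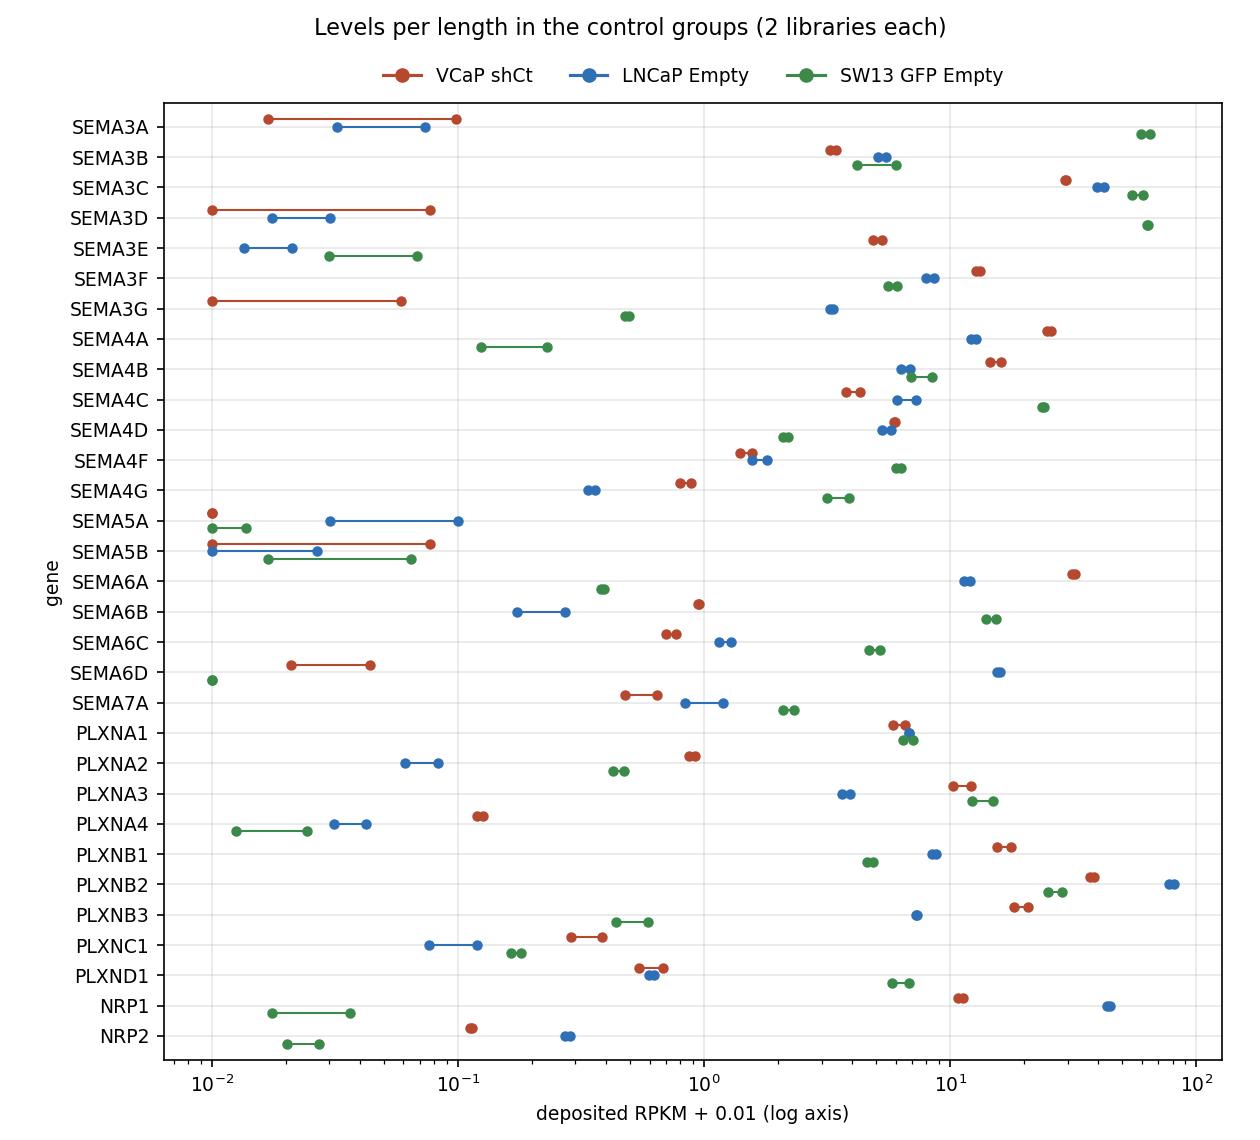
Deposited RPKM plus 0.01 on a log axis for the 31 genes in the control group of each line (VCaP shCt, LNCaP Empty, SW13 GFP Empty), each point being a library and a line joining the 2 libraries of a group. SEMA3A and SEMA3D are high in SW13, where NRP1 is close to 0, and PLXNB2 is high in all 3 lines.

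The design gave 14 comparisons between groups. A gene was called higher or lower where edgeR's two-sided quasi-likelihood test gave a Benjamini-Hochberg adjusted p under 0.05 over all genes tested. Changes are log2 ratios ± an approximate standard error. Enough reads for a test were found for 28 members in VCaP (not SEMA3A, SEMA3G and SEMA5A), 28 in LNCaP (not SEMA3A, SEMA3D and SEMA3E) and 29 in SW13 (not SEMA5A and SEMA6D). At 2-fold or more, 22 of the 31 were called in at least 1 comparison, beside 53.6% of all genes tested. The other 9 were PLXNA1, SEMA3A, SEMA3C, SEMA4B, SEMA4C, SEMA4D, SEMA4F, SEMA4G and SEMA5A. That list depends on edgeR's scaling of the libraries, and on library totals 2 of them passed 2-fold. PLXNA1 averaged 6.73 RPKM in SW13 GFP Empty and 13.8 in SW13 BRG1 Empty. SEMA4B averaged 15.3 in VCaP shCt and 30.9 in VCaP shARID1A. NRP1, NRP2, PLXNA2, PLXNA4 and SEMA5B were called at 2-fold or more in at least 1 comparison of every line. That is 5 (20%) of the 25 members tested in all lines, beside 335 (2.28%) of 14707 genes. The share was not tested as an enrichment. Genes with few reads, SEMA5B among them, enter it by passing the filter on low counts through the groups where they are high. In LNCaP the calls of PLXNA4 at this size were lost without some single libraries.

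Members that were never called at 2-fold or more included ligands made in every line. SEMA3C ranged over 124 to 228 CPM in the 6 VCaP libraries, 141 to 217 in the 6 LNCaP libraries and 187 to 314 in the 12 SW13 libraries. SEMA4D, the ligand of plexin B1, ranged over 37.0 to 52.1, 27.5 to 38.8 and 14.1 to 23.8 CPM in that order, and the receptor gene PLXNA1 over 52.9 to 59.3, 46.1 to 61.7 and 57.9 to 125. They still passed the test with smaller changes, as the dots in the plot of all changes show. Over the 14 comparisons SEMA3C was called higher in 4 and lower in 7, SEMA4D in 6 and 3, and PLXNA1 in 4 and 5. Of the members never called at 2-fold or more, only SEMA5A was not called at all.

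**Figure D2:**
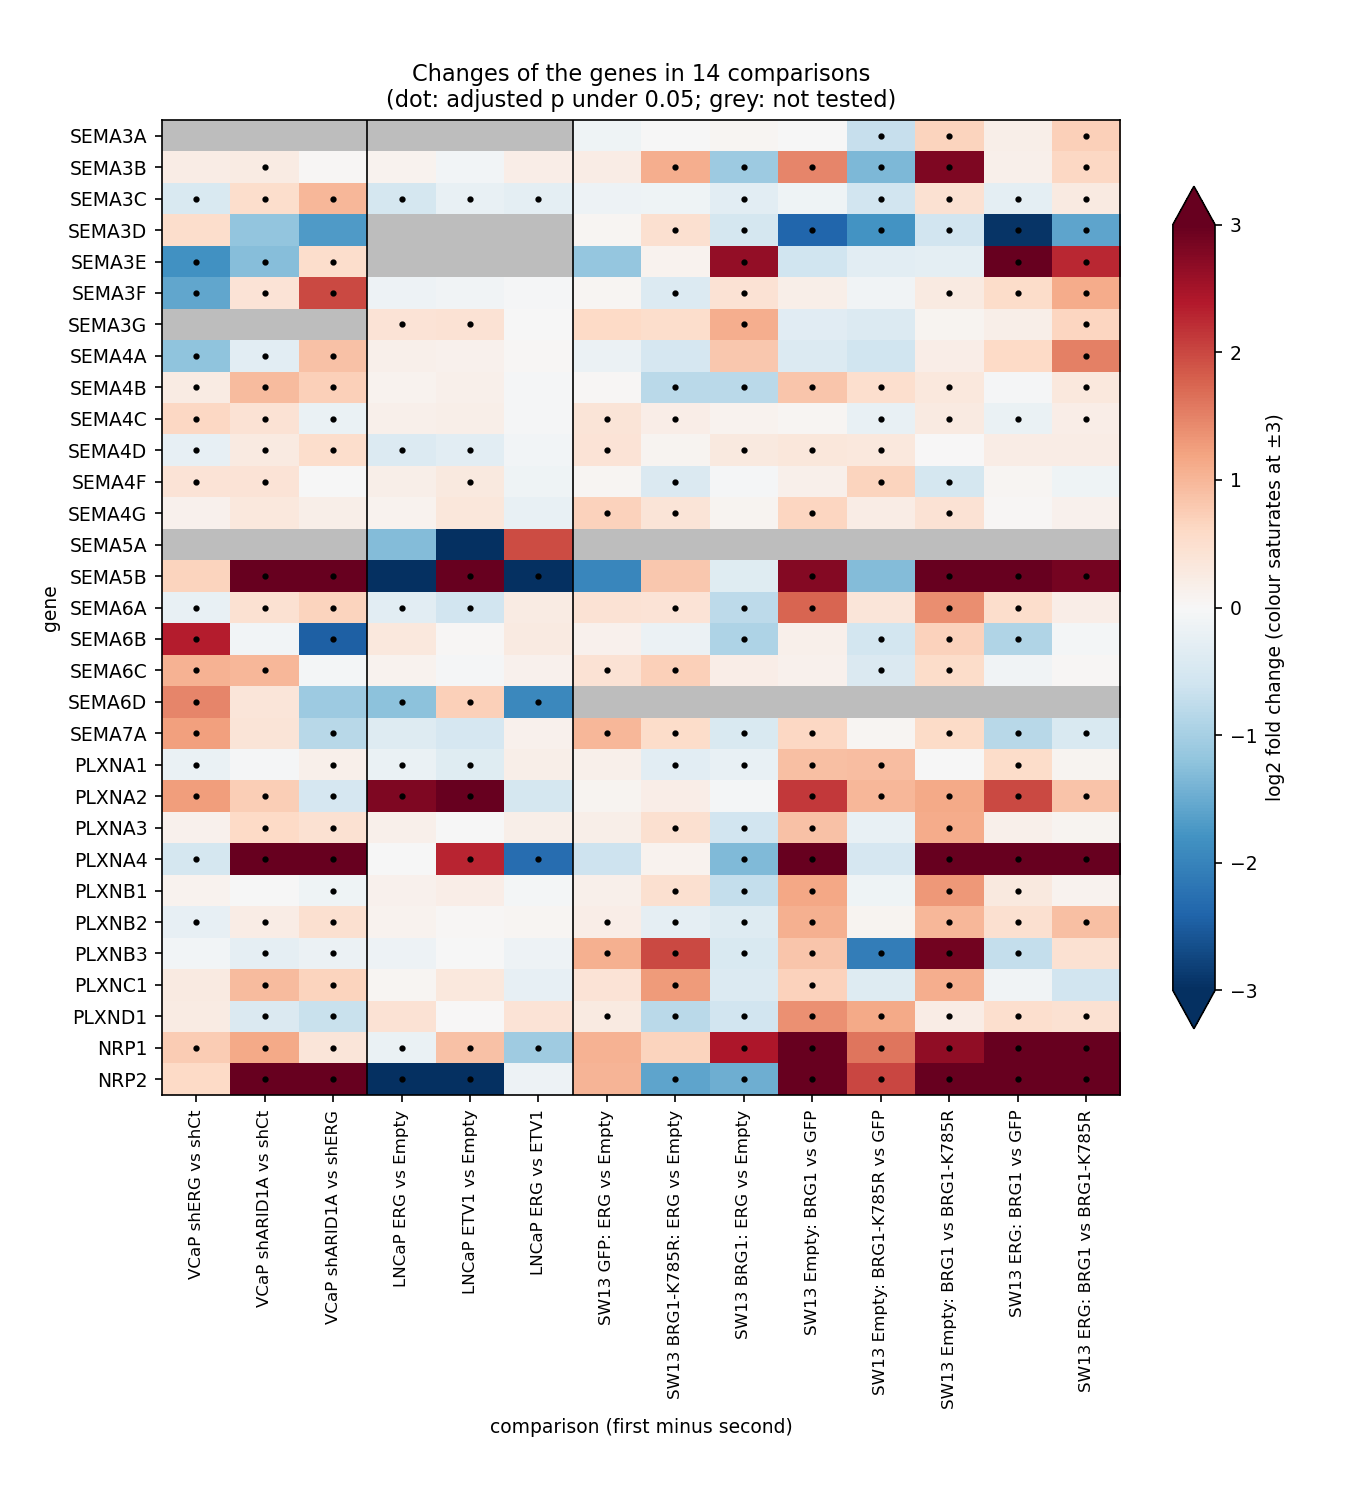
Log2 fold changes of the 31 genes (rows) in 14 comparisons (columns, first group minus second), red for higher and blue for lower, with colours saturating at 3 in either direction. Dots mark an adjusted p under 0.05 and grey cells were not tested. NRP1, NRP2, PLXNA2, PLXNA4 and SEMA5B have dotted cells at a log2 change of 1 or more, in either direction, in all 3 lines.

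NRP2, PLXNA4 and PLXNA2 are the receptor genes of that group with a promoter window in the RefSeq table (GRCh38.p14), and the 250 bases before their annotated starts are shown for that reason. Bases run 5′ to 3′ along the gene. Capitals mark GGAA or its other-strand form TTCC, the core letters of sites for ETS factors such as ERG and ETV1, and would mark TGANTCA, the AP-1 letters, which these windows lack.
NRP2, chr2:205682251-205682500, plus strand: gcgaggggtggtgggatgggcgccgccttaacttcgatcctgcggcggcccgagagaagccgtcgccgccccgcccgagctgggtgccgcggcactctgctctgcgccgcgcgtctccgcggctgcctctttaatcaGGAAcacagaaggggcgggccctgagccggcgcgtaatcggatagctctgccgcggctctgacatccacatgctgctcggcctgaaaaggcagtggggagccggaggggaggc
PLXNA4, chr7:132576471-132576720, minus strand: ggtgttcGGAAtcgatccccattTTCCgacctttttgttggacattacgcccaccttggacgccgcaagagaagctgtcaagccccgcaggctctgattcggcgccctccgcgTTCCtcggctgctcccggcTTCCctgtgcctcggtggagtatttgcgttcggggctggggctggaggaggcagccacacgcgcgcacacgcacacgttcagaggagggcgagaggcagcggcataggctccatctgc
PLXNA2, chr1:208244385-208244634, minus strand: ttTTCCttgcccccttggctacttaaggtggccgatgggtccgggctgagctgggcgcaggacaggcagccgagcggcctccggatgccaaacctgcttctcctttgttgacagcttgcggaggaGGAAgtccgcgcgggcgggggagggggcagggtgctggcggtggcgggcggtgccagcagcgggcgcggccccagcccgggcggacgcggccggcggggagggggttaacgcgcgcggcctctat
The NRP2 window held 1 GGAA, that of PLXNA2 2 and that of PLXNA4 4. These letters are common: on either strand they occurred in 92.7% of all 35116 windows of this length, with a mean of 2.93 per window, and in 42 (87.5%) of the family's 48 windows. CCGGAAG, a longer ETS form that contains GGAA, occurred in 8.52% of all windows and in 3 (6.25%) of the 48, at PLXNB1 and SEMA4B. TGANTCA occurred in 6.57% of all windows and in 1 of the 48, at PLXNC1. The 48 windows belong to 27 of the 31 genes, the others being NRP1, SEMA3A, SEMA6A and SEMA6B. A match of letters is a description and not a binding site.

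In VCaP cells ERG knockdown lowered some ligands and raised others. With shERG, 9 of 28 members rose and 9 fell, against 66.7% of all genes called (29.3% higher and 37.4% lower). Their median log2 change was 0.23, beside -0.05 over all genes. Scaling to library totals shifted the all-gene median by 0.18 and gave 14 members higher and 4 lower.

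SEMA3E, a secreted ligand that binds plexin D1 without a neuropilin, stood at 32.5 and 35.5 CPM in the shCt libraries and 10.4 and 11.5 in the shERG libraries. Both shERG libraries lay below both controls (-1.82 ± 0.09, adjusted p = 4.40e-14). SEMA3F, a ligand of NRP2, went from 46.4 and 44.7 to 17.5 and 17.4 CPM, also without overlap (-1.57 ± 0.07, adjusted p = 1.10e-14). SEMA4A, a membrane ligand known from immune and retinal cells, fell from 85.1 and 88.4 to 42.8 and 43.1 CPM (-1.20 ± 0.05, adjusted p = 2.25e-14). These were the members that fell by 2-fold or more.

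The rises were led by SEMA6B, a transmembrane ligand of plexin A4. It had 95 and 96 reads with shCt and 668 and 551 with shERG, or 3.72 and 3.67 and then 21.7 and 21.3 CPM. The shERG libraries lay far above the controls (5.12-fold, log2 2.36 ± 0.12, adjusted p = 1.14e-13). SEMA7A, a lipid-anchored ligand of plexin C1, rose from 1.90 ± 0.41 to 5.04 ± 1.6 CPM (1.24 ± 0.23, adjusted p = 7.51e-05). SEMA6C, another class 6 membrane protein, rose from 2.92 ± 0.20 to 6.82 ± 1.3 CPM (1.05 ± 0.17, adjusted p = 1.33e-05).

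SEMA6D was called as well, on 6 and 2 reads against 15 and 13 (1.47 ± 0.61, adjusted p = 0.0393). That call rests on single libraries: the adjusted p was 0.304 without shCt replicate 2, 0.103 without shERG replicate 1 and 0.117 without shERG replicate 2. Without shCt replicate 1 the log2 change was 2.45.

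Of 9 plexins, 1 rose and 3 fell with shERG. The falls were less firm: the call was lost for PLXNA4 in 9 of 10 alternative settings (adjusted p up to 0.191), for PLXNA1 in 6 (up to 0.904) and for PLXNB2 in 1. PLXNA3 and PLXNB1 were called higher in 6 each. PLXNA2, a receptor of class 6 semaphorins and a partner of neuropilins, rose from 9.78 and 10.4 to 28.0 and 26.6 CPM (1.25 ± 0.09, adjusted p = 3.52e-11). NRP1, the binding receptor of SEMA3A and of VEGF, rose from 63.6 and 66.8 to 133 and 118 CPM (0.76 ± 0.06, adjusted p = 8.18e-11). NRP2 was not called, with 0.783 and 0.803 CPM in shCt and 0.941 and 1.86 in shERG (adjusted p = 0.103).

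ARID1A knockdown raised both neuropilins and PLXNA4. With shARID1A, 17 of 28 members rose and 4 fell (background 66.1% called, 32.9% higher and 33.2% lower), with a median log2 change of 0.40 beside 0.01 over all genes. By role, 10 semaphorins rose and 2 fell, 5 plexins rose and 2 fell, and both neuropilins rose. PLXND1, a plexin that fell, lost its call in 8 of 10 alternatives (adjusted p up to 0.351), and library totals gave 17 members higher and 3 lower.

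SEMA5B, a transmembrane ligand with thrombospondin repeats, had 0 and 10 reads with shCt and 110 and 92 with shARID1A (4.24 ± 0.46, adjusted p = 3.48e-08). The uneven controls set its size: the log2 change was 3.27 without shCt replicate 1, and without shCt replicate 2 the control had no reads. SEMA3E fell with this hairpin too, from 32.5 and 35.5 to 14.7 and 14.5 CPM (-1.29 ± 0.08, adjusted p = 8.88e-12). Both hairpins share the shCt libraries as controls, so a change seen with both is not a separate observation. Rises under 2-fold by edgeR's log2 change took in SEMA4B (60.2 ± 4.1 to 122 ± 4.0 CPM), SEMA3C (152 ± 0.51 to 228 ± 0.12) and SEMA6A (221 ± 4.6 to 318 ± 2.0). The antisense gene SEMA6A-AS1 went from 12.3 and 15.3 to 19.2 and 18.4 CPM, and the reads of that pair cannot be told apart, since the strand rule is not given in the sources used here.

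PLXNA4, a plexin that signals with neuropilins, stood at 1.80 and 1.68 CPM in shCt and 18.6 and 17.0 in shARID1A, a 9.78-fold rise (3.29 ± 0.15, adjusted p = 1.46e-14). NRP2, a receptor of SEMA3F and of the lymphatic growth factor VEGFC, had 20 and 21 reads with shCt and 612 and 516 with shARID1A. In CPM this was 0.783 and 0.803 against 21.4 and 22.2 (4.70 ± 0.20, adjusted p = 2.88e-15), so the gene was hardly read in control cells and clearly read after ARID1A knockdown. NRP1, already present, rose from 63.6 and 66.8 to 152 and 148 CPM (1.14 ± 0.06, adjusted p = 5.96e-14).

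Mesenchymal markers moved beside these receptors. Their summed level was 196 to 198 CPM in shCt, 204 to 213 in shERG and 696 to 703 in shARID1A. Of 7 tested, 5 rose and none fell with shARID1A, and none of the 9 was at 0. Over all genes 32.9% were higher and 33.2% lower with shARID1A, and 29.3% and 37.4% with shERG. Prostate luminal markers moved with both hairpins, 5 of 7 falling and 2 rising with each. Their sum was 12482 to 13114 CPM in shCt, 8489 to 8828 in shERG and 9287 to 9523 in shARID1A, and none was at 0. The part of either marker list in the members' changes was not tested. In bulk libraries, fewer cells of a type and less RNA per cell cannot be told apart.

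Between the knockdowns 22 members differed, 15 higher and 7 lower with shARID1A (background 73.0% called, 36.8% higher and 36.2% lower). The same libraries enter the 2 comparisons above, so these values are not a separate observation. SEMA3F stood at 61.7 and 64.6 CPM with shARID1A and 17.5 and 17.4 with shERG (1.97 ± 0.07, adjusted p = 6.31e-17). SEMA6B stood at 3.81 and 3.48 against 21.7 and 21.3 CPM (-2.44 ± 0.12, adjusted p = 3.15e-14) and was the only member lower by 2-fold or more. NRP2 (4.11 ± 0.17), PLXNA4 (3.81 ± 0.15) and SEMA5B (3.56 ± 0.39) were higher with shARID1A. SEMA3F, SEMA6B, NRP2, PLXNA4 and SEMA5B thus separated the 2 knockdowns. Library totals shifted the all-gene median by -0.12 and gave 14 members higher and 7 lower.

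Other genes of the pathway were counted from 4 lists, of plexin effectors, co-receptors, growth factors that bind neuropilins, and proteases that cleave semaphorins. Of 29 effectors, 6 rose and 17 fell with shERG (median log2 change -0.28), and 15 rose and 10 fell with shARID1A (median 0.16). Over all genes 29.3% were higher and 37.4% lower with shERG, and 32.9% and 33.2% with shARID1A. On library totals the effectors counted 9 higher and 10 lower with shERG, and 18 and 10 with shARID1A. MICAL2, an enzyme that oxidises actin, fell with shERG from 29.7 ± 1.6 to 11.1 ± 0.083 CPM (-1.60 ± 0.08). FYN, a kinase downstream of plexin A, rose with shARID1A from 6.58 ± 0.056 to 24.6 ± 3.5 CPM (1.84 ± 0.11). DPYSL5, a collapsin response protein, fell with both, from 39.2 ± 2.9 CPM to 15.4 ± 2.1 with shERG and 7.49 ± 0.81 with shARID1A.

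Of 12 co-receptors, 5 rose and 2 fell with shERG, and 3 rose and 3 fell with shARID1A. L1CAM, an adhesion protein that partners NRP1, had 4.43 ± 0.046 CPM in shCt and was higher with shERG (11.9 ± 0.58, log2 1.25 ± 0.15) and lower with shARID1A (1.27 ± 0.52, log2 -1.83 ± 0.22). Of 4 growth factors tested, 2 fell with shERG, VEGFA from 37.0 ± 3.4 to 20.2 ± 3.1 CPM among them (-1.06 ± 0.10). With shARID1A 2 rose and 1 fell, HGF from 63.7 ± 2.0 to 32.9 ± 0.46 CPM (-1.02 ± 0.06). Of the 4 proteases, 2 fell with shERG and 3 rose with shARID1A. On library totals 1 protease rose and 1 fell with shERG, 1 growth factor rose and 2 fell, and 6 co-receptors rose and 2 fell. The counts of these lists with shARID1A were the same on library totals.

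**Figure D3:**
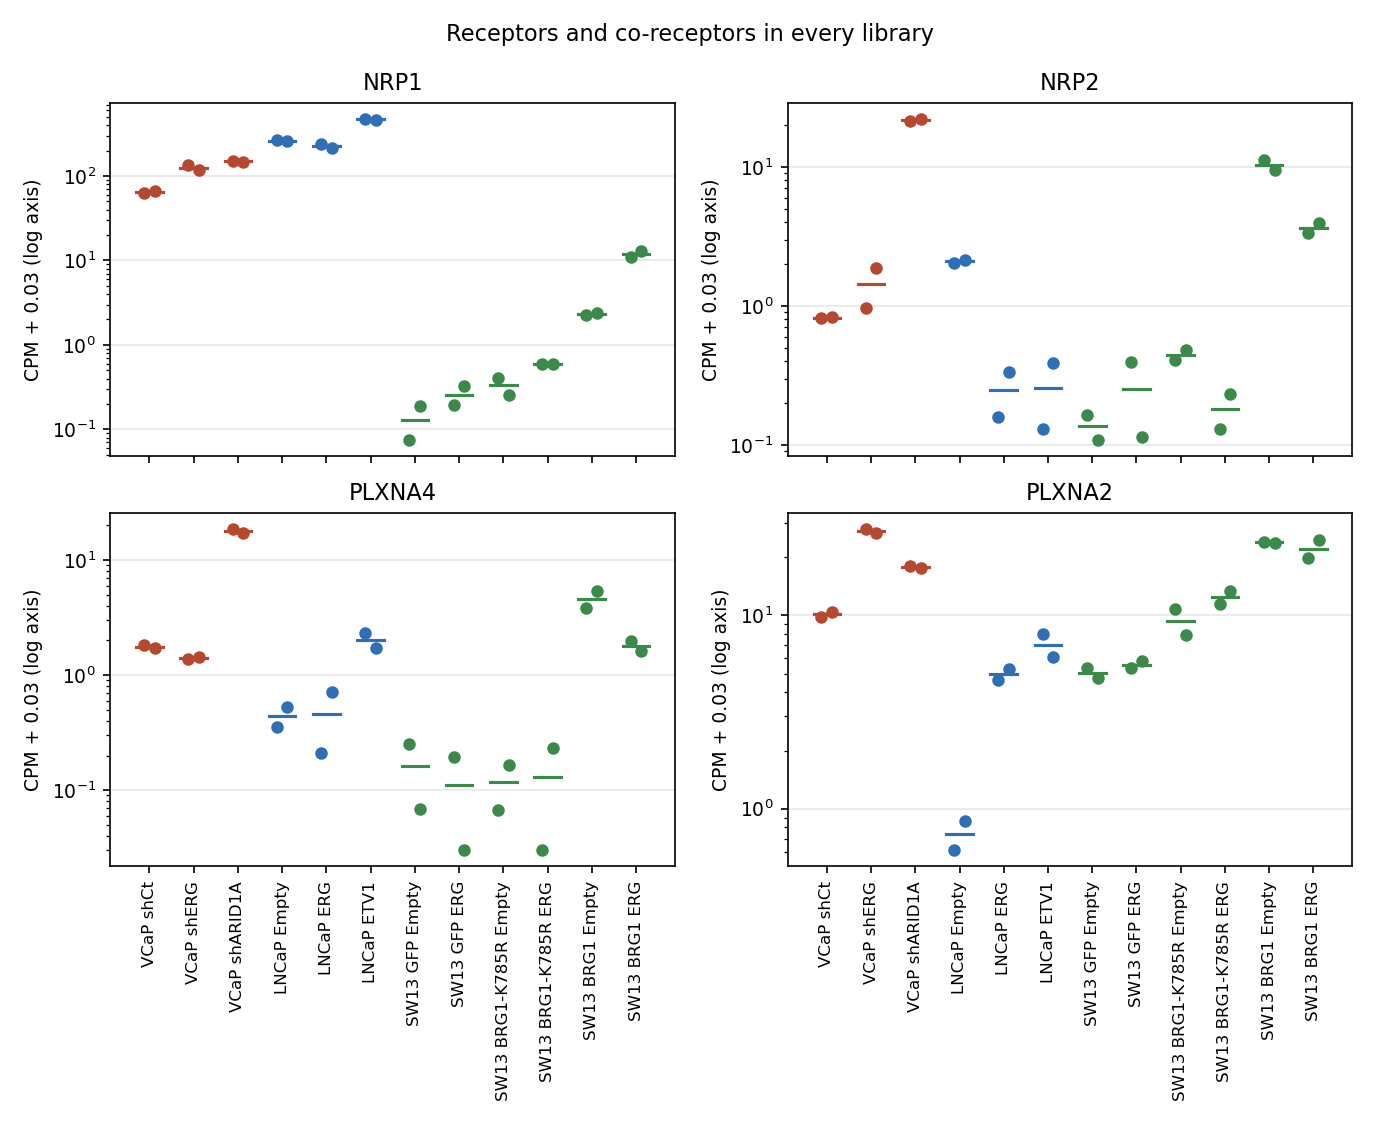
CPM plus 0.03 on a log axis for NRP1, NRP2, PLXNA4 and PLXNA2 in each of the 24 libraries, with points for libraries and bars for group means, on an own scale per gene. NRP2 and PLXNA4 are high in VCaP shARID1A and in the SW13 groups with BRG1, NRP2 is low in LNCaP ERG and ETV1, and NRP1 is highest in LNCaP ETV1.

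In LNCaP cells both ETS factors raised PLXNA2 and lowered NRP2. With ERG, 2 of 28 members rose and 7 fell (background 29.7% called, 15.4% higher and 14.3% lower). With ETV1, 7 rose and 5 fell (background 26.1% called, 13.2% higher and 12.9% lower), or 6 and 5 on library totals. The members' median log2 change was 0.07 with ERG and 0.03 with ETV1, beside -0.00 and 0.01 over all genes. Without Empty replicate 1 the members called were 5 with ERG and 7 with ETV1. Both factors share the 2 Empty libraries as controls.

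SEMA6D, the plexin A1 ligand, stood at 107 and 110.5 CPM in Empty, 51.3 and 41.0 with ERG and 174 and 175 with ETV1. It fell with ERG (-1.22 ± 0.09, adjusted p = 2.42e-05) and rose with ETV1 (0.72 ± 0.08, adjusted p = 0.000405), and no libraries of the 3 groups overlapped. SEMA5B had 0 and 4 reads in Empty, 0 and 0 with ERG and 82 and 80 with ETV1 (ETV1 against Empty 5.33 ± 0.62, adjusted p = 0.000704). Few control reads set that size, which was 4.41 without Empty replicate 1, and without Empty replicate 2 the control had no reads.

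PLXNA2 had 23 and 35 reads in Empty, 179 and 154 with ERG and 317 and 238 with ETV1, or 0.579 and 0.833, 4.62 and 5.25, and 7.94 and 6.06 CPM. Every library with an ETS construct lay above the controls (ERG 2.80 ± 0.23, adjusted p = 5.31e-05, and ETV1 3.34 ± 0.23, adjusted p = 1.90e-05). PLXNA4 had 13 and 21 reads in Empty, 7 and 20 with ERG and 91 and 66 with ETV1. It was called higher with ETV1 (2.28 ± 0.48, adjusted p = 0.00803), but the adjusted p was 0.0779 without Empty replicate 1 and 0.0749 without ETV1 replicate 1.

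NRP2 had 80 and 89 reads in Empty (2.02 and 2.12 CPM), 5 and 9 with ERG and 4 and 14 with ETV1. It fell with ERG (-3.28 ± 0.50, adjusted p = 0.00152) and with ETV1 (-3.13 ± 0.48, adjusted p = 0.00176). Low counts make the size uncertain: it was -3.96 without ERG replicate 2, -2.48 without ETV1 replicate 1 and -4.28 without ETV1 replicate 2. NRP1, far more abundant, stood at 264 and 257 CPM in Empty, 237 and 217 with ERG and 477 and 465 with ETV1. It rose with ETV1 (0.89 ± 0.05, adjusted p = 7.66e-06), while the fall with ERG was small (-0.19 ± 0.05, adjusted p = 0.0248). That fall lost its call without Empty replicate 1 (adjusted p = 0.149), Empty replicate 2 (0.0834) or ERG replicate 2 (0.136).

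Mesenchymal markers fell beside NRP2, 8 of 9 with ERG and 8 of 9 with ETV1. The remaining 1 rose with ERG and was not called with ETV1. Over all genes 14.3% were lower and 15.4% higher with ERG, and 12.9% lower and 13.2% higher with ETV1. The markers' median log2 change was -4.32 with ERG and -5.02 with ETV1, larger than their sum shows. Their sum was 162 to 163 CPM in Empty, 116 to 133 with ERG and 73.9 to 82.4 with ETV1, and none was at 0. Endothelial markers summed to 26.9 to 29.0 CPM in Empty, 55.4 to 64.0 with ERG and 58.8 to 63.1 with ETV1, with 2 of 5 tested higher and none lower with ERG, and 2 higher and 1 lower with ETV1. CDH5 and TIE1 were at 0 with ETV1, and no endothelial marker was at 0 in the other 2 groups. Their part in the members' changes was not tested.

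The direct contrast of ERG with ETV1 called 5 members, all lower with ERG, of 28 tested (background 14.4% called, 7.87% higher and 6.5% lower). No member was called higher with ERG by edgeR, beside 3 at an unadjusted p under 0.05 and 1 by DESeq2, and on library totals the split was 2 higher and 5 lower. Without ETV1 replicate 1 the members called were 3. SEMA6D (-1.94 ± 0.09, adjusted p = 5.36e-06) and NRP1 (-1.08 ± 0.05, adjusted p = 6.38e-06) had the smallest adjusted p. SEMA5B, with no reads in ERG libraries, was at least 46.4-fold lower than with ETV1, taking a floor of 3 counts over the group. SEMA3C, a secreted ligand studied in prostate cancer, stood at 145 ± 5.4 CPM with ERG and 176 ± 16 with ETV1 (-0.30 ± 0.07, adjusted p = 0.0183), with an adjusted p of 0.0884 without ERG replicate 2 and 0.0804 without ETV1 replicate 1. PLXNA4 differed by -2.29 ± 0.49 (adjusted p = 0.0163). Its adjusted p was 0.0653 without ERG replicate 1, 0.115 without ETV1 replicate 1 and 0.0786 without ETV1 replicate 2, and its log2 difference -1.57 without ERG replicate 1 and -3.46 without ERG replicate 2.

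Among the other pathway genes in LNCaP, 7 of 29 effectors rose and 6 fell with ERG, and 6 rose and 5 fell with ETV1, beside all-gene shares of 15.4% and 14.3% with ERG and 13.2% and 12.9% with ETV1. DPYSL2, the collapsin response protein of the SEMA3A pathway, rose with ERG from 21.9 ± 0.79 to 56.0 ± 5.0 CPM (1.36 ± 0.07, adjusted p = 5.90e-06). Of 12 co-receptors, 2 rose and 2 fell with ERG, FLT4, the receptor of VEGFC, going from 2.46 ± 0.66 to 5.43 ± 0.66 CPM. With ETV1 3 rose and 3 fell, L1CAM from 3.30 ± 1.6 to 0.616 ± 0.40 CPM. MMP14, a membrane protease, fell with both factors from uneven controls, 5.85 ± 4.6 CPM, to 1.24 ± 0.55 with ERG and 0.430 ± 0.041 with ETV1. Of the 4 proteases, 2 rose and 1 fell with ERG.

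In SW13 cells BRG1 raised receptors across the family. With Empty beside it, BRG1 gave 18 members higher and 1 lower of 29 against GFP (background 62.4% called, 32.2% higher and 30.2% lower). All 9 plexins and both neuropilins were higher, although PLXNC1 lost its call in 5 of 11 alternatives (DESeq2 and each library left out, adjusted p up to 0.136). The members' median log2 change was 0.70, beside 0.03 over all genes. Scaling to library totals shifted the all-gene median by 0.13 and gave 23 members higher and 1 lower.

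Ligands split. SEMA3D, one of the leading semaphorins of the control cells, fell from 399 and 395 CPM with GFP to 83.6 and 84.7 with BRG1 (-2.37 ± 0.08, adjusted p = 1.78e-22) and was the only member that fell. SEMA3A was not called, at 367 and 336 against 380.5 and 381 CPM. SEMA3B, a secreted semaphorin studied as a tumour suppressor, rose from 20.3 and 14 to 47.5 and 55.7 CPM (1.46 ± 0.12, adjusted p = 1.73e-12). Its antisense gene SEMA3B-AS1 went from 2.09 and 1.37 to 4.06 and 4.34 CPM, and the strand setting of the counting is not given in the sources used here, so reads of the pair cannot be told apart. SEMA6A, a ligand of plexins A2 and A4, rose from 2.58 and 2.66 to 9.78 and 9.64 CPM (1.75 ± 0.17, adjusted p = 1.28e-10), with SEMA6A-AS1 going from 0.401 and 0.431 to 1.09 and 1.81. SEMA5B had 7 and 1 reads against 28 and 37 (2.75 ± 0.59, adjusted p = 0.000146), with a log2 change of 4.68 without GFP Empty replicate 1 and 1.89 without replicate 2.

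PLXNA4 had 5 and 1 reads with GFP and 101 and 134 with BRG1 (5.0 ± 0.49, adjusted p = 2.32e-10). Its size depended on the control library, at 6.54 without GFP Empty replicate 1 and 4.22 without replicate 2. Other plexins were already read and rose from there. PLXNA2 went from 5.30 and 4.74 to 23.9 and 23.8 CPM (2.12 ± 0.14, adjusted p = 2.65e-14), and PLXND1, the receptor of SEMA3E, from 47.3 and 40.3 to 127 and 121 (1.37 ± 0.09, adjusted p = 3.92e-15). PLXNB1, the receptor of SEMA4D, went from 35.5 and 33.6 to 81.4 and 88.4 CPM (1.16 ± 0.09), and PLXNB2 from 181 and 157 to 384 and 392 (1.07 ± 0.08). In each of these genes both BRG1 libraries lay above both GFP libraries.

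Both neuropilins went from almost no reads to a clear signal. NRP2 had 3 and 2 reads with GFP and 295 and 234 with BRG1, or 0.134 and 0.0784 against 11.1 and 9.40 CPM (6.42 ± 0.36, adjusted p = 3.39e-16). NRP1 had 1 and 4 reads against 60 and 58 (4.26 ± 0.44, adjusted p = 7.34e-10), with a log2 change of 3.67 without GFP Empty replicate 1 and 5.42 without replicate 2.

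BRG1-K785R gave 8 members higher and 8 lower against GFP (background 58.7% called, 32.3% higher and 26.4% lower), with a median log2 change of -0.21 beside 0.05 over all genes, and 6 higher and 9 lower on library totals. Like BRG1 it lowered SEMA3D, to 103 and 115 CPM (-1.78 ± 0.08, adjusted p = 1.40e-18), and raised PLXND1, to 97.2 and 85.2 CPM (1.14 ± 0.09, adjusted p = 6.27e-13). SEMA3B and PLXNB3 went below GFP with the mutant. SEMA3B fell to 6.62 and 6.07 CPM (-1.34 ± 0.14, adjusted p = 1.26e-09), with SEMA3B-AS1 at 0.752 and 0.679. PLXNB3, a receptor of SEMA5A, fell from 3.70 and 2.74 to 0.790 and 0.634 CPM (-2.07 ± 0.29, adjusted p = 2.87e-07). The neuropilins stayed under 1 CPM. NRP2 had 10 and 10 reads (2.01 ± 0.67, adjusted p = 0.0104), with an adjusted p of 0.0852 without GFP Empty replicate 2. NRP1 had 10 and 5 reads (1.60 ± 0.68, adjusted p = 0.0448), with 0.275 without GFP Empty replicate 1, 0.301 without BRG1-K785R Empty replicate 1 and a log2 change of 2.76 without GFP Empty replicate 2.

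BRG1 set against its mutant was higher in 22 and lower in 2 of 29 members (background 66.7% called, 32.6% higher and 34.1% lower). The median was 0.56, beside 0.01 over all genes, and library totals moved the latter by 0.21 and gave 24 higher and 2 lower. These contrasts share groups with those against GFP. The members lower with BRG1 were SEMA3D (83.6 and 84.7 against 103 and 115 CPM) and SEMA4F (48.4 and 42.6 against 58.7 and 53.8). SEMA3B stood at 47.5 and 55.7 against 6.62 and 6.07 CPM (2.80 ± 0.13, adjusted p = 3.34e-18). SEMA5B had 65 reads against 3, a ratio of 20.5 with a 95% counting interval of 6.71 to 102. Without BRG1-K785R Empty replicate 2, which held 2 of those 3 reads, the log2 difference was 4.68.

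On the receptor side of that contrast, 8 of 9 plexins were higher with BRG1 and none was lower. PLXNB3 stood at 5.98 and 6.47 against 0.790 and 0.634 CPM (2.89 ± 0.26, adjusted p = 2.75e-11). PLXNA3, a partner of neuropilins, stood at 173 and 199 against 77.5 and 70.2 CPM (1.12 ± 0.10, adjusted p = 4.19e-11). PLXNA4 had 1 and 3 reads with the mutant (5.51 ± 0.53, adjusted p = 1.11e-10), and the difference was 4.81 without BRG1-K785R Empty replicate 1 and 6.54 without replicate 2. PLXNB1 (81.4 and 88.4 against 30.0 and 29.7 CPM, 1.30 ± 0.09), PLXNA2 (23.9 and 23.8 against 10.8 and 7.88, 1.13 ± 0.13) and PLXNC1 (2.29 and 2.09 against 0.865 and 0.905, 1.10 ± 0.30) were higher without overlap, and so was the ligand SEMA6A (9.78 and 9.64 against 3.20 and 3.17, 1.40 ± 0.16). NRP2 (4.41 ± 0.29, adjusted p = 9.90e-15) and NRP1 (2.67 ± 0.35, adjusted p = 7.01e-08) were both higher with BRG1.

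Of the pathway lists, 12 of 31 effectors rose and 8 fell with BRG1 against GFP, and 15 rose and 8 fell with the mutant. All genes were 32.2% higher and 30.2% lower with BRG1, and 32.3% and 26.4% with the mutant. On library totals the effectors counted 16 higher and 6 lower with BRG1, and 14 and 8 with the mutant. MICAL2 rose with BRG1 from 3.08 ± 0.31 to 15.8 ± 2.2 CPM and with the mutant to 9.65 ± 0.25. Of 13 co-receptors, 4 rose and 2 fell with BRG1, and 1 rose and 4 fell with the mutant. MET, a receptor kinase that pairs with class B plexins, rose with BRG1 from 6.31 ± 0.72 to 33.9 ± 1.1 CPM (2.3 ± 0.12) and differed from the mutant by 2.38 ± 0.12. HGF, the ligand of MET, fell from 0.879 ± 0.080 to 0.346 ± 0.15 CPM (-1.45 ± 0.44), among 6 growth factors of which 3 rose and 1 fell.

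Markers of other cell types moved with BRG1 and with its mutant. The mesenchymal sum was 1164 to 1183 CPM in GFP Empty, where TGFBI was at 0, 1314 to 1382 in BRG1-K785R Empty and 2102 to 2113 in BRG1 Empty. Of 8 tested, 5 rose and none fell with BRG1, and the mutant gave the same counts. Over all genes 32.2% were higher and 30.2% lower with BRG1, and 32.3% and 26.4% with the mutant. The mesenchymal markers' median log2 change was 0.95 with BRG1 and 0.31 with the mutant. On library totals 6 rose with BRG1 and 3 with the mutant. Endothelial markers summed to 22.0 to 22.3 CPM in GFP Empty, where PECAM1, CDH5, VWF and ROBO4 were at 0, and to 25.4 to 26.3 in BRG1 Empty, where EMCN was at 0. Of 7 tested, 5 rose and 1 fell with BRG1, or 6 and 0 on library totals. With the mutant 2 rose and 1 fell on either scale, and the sum was 14.2 to 14.9 CPM. Their part in the receptors' rise was not tested.

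With ERG in place of Empty, BRG1 gave 12 members higher and 6 lower against GFP (background 58.9% called, 30.4% higher and 28.5% lower). Against BRG1-K785R it gave 16 higher and 2 lower (background 47.0% called, 24.3% higher and 22.6% lower). On library totals the splits were 14 and 5 against GFP, and 15 and 2 against the mutant. SEMA3D stood at 58.7 and 55.3 CPM with BRG1, 425 and 436 with GFP (-2.95 ± 0.08, adjusted p = 7.80e-25) and 181 and 163 with the mutant (-1.57 ± 0.08, adjusted p = 2.03e-17), so it was lowest with BRG1 here too. SEMA5B had 48 reads against 2 with GFP, a ratio of 23.1 with a 95% counting interval of 6.06 to 196. Against the mutant, with 4 and 1 reads, it differed by 2.88 ± 0.69, and by 4.14 and 2.20 without the mutant's ERG replicates 1 and 2. SEMA3E had 3 and 3 reads with GFP, 4 and 6 with the mutant and 24 and 37 with BRG1 (against GFP 3.20 ± 0.57, adjusted p = 1.44e-05; against the mutant 2.26 ± 0.52, adjusted p = 0.000579). PLXNA2 stood at 5.29 and 5.76 CPM with GFP and 19.7 and 24.6 with BRG1 (1.97 ± 0.14, adjusted p = 1.00e-13). SEMA3F was higher than with the mutant, at 32.7 and 33.4 against 15.8 and 15.0 CPM (1.12 ± 0.10, adjusted p = 1.05e-10).

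With ERG present, NRP1 had 4 and 7 reads beside GFP, 11 and 11 beside the mutant and 276 and 329 beside BRG1 (against GFP 5.66 ± 0.30, adjusted p = 3.33e-17; against the mutant 4.44 ± 0.26, adjusted p = 1.84e-15). NRP2 had 9 and 2, 2 and 4, and 83 and 99 reads in the same order (against GFP 3.93 ± 0.36, against the mutant 4.54 ± 0.42). Its difference from GFP was 5.31 without GFP ERG replicate 1 and 3.25 without replicate 2. PLXNA4 had 4 and 0, 0 and 4, and 49 and 40 reads (against GFP 4.30 ± 0.62, or 3.37 without GFP ERG replicate 2, the library with 0, and 8.36 without replicate 1, which leaves 0 reads in the control; against the mutant 4.08 ± 0.63, or 3.14 without its ERG replicate 1, also a library with 0).

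ERG was then set against Empty in each SW13 background. Beside GFP its effects on the family were small: 8 of 29 members rose (background 26.0% called, 12.6% higher and 13.5% lower), and none fell by edgeR, beside 1 lower at an unadjusted p under 0.05 and 0 by DESeq2. On library totals the split was 9 higher and 0 lower. SEMA7A rose from 7.17 and 7.95 to 15.2 and 16 CPM (0.99 ± 0.12, adjusted p = 4.46e-07) and PLXNB3 from 3.70 and 2.74 to 6.67 and 7.22 (1.06 ± 0.20, adjusted p = 0.000205), with no overlap in either. Neither neuropilin was called. Without GFP Empty replicate 2 the members called were 4, and without GFP ERG replicate 2 they were 5.

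Beside BRG1-K785R, 11 members rose and 7 fell with ERG (background 56.2% called, 25.3% higher and 30.9% lower). Library totals shifted the all-gene median by 0.18 and gave 15 higher and 3 lower. SEMA3B rose from 6.62 and 6.07 to 13.7 and 17.2 CPM (1.09 ± 0.15, adjusted p = 1.68e-07), with SEMA3B-AS1 going from 0.752 and 0.679 to 1.97 and 1.72. PLXNB3 rose from 0.790 and 0.634 to 2.28 and 4.20 CPM (1.97 ± 0.30, adjusted p = 1.23e-06). PLXNC1, the SEMA7A receptor, rose from 0.865 and 0.905 to 1.77 and 3.13 CPM (1.28 ± 0.30, adjusted p = 0.000590), with a log2 change of 0.83 and an adjusted p of 0.0610 without BRG1-K785R ERG replicate 2. NRP2 was called lower on 10 and 10 reads against 2 and 4 (-1.59 ± 0.65, adjusted p = 0.0359), and the call was lost when any 1 of those 4 libraries was left out. The SMARCA4 level fell between these groups, as given above. Of 8 mesenchymal markers tested, 5 fell and 1 rose, or 3 and 1 on library totals. Their sum was 1314 to 1382 CPM in Empty and 1213 to 1251 with ERG, where S100A6 was at 0. Endothelial markers, 2 of 7 higher and none lower, summed to 14.2 to 14.9 and 31.8 to 33.7 CPM, with PECAM1 at 0 with ERG. The part of SMARCA4 or the markers in these changes was not tested.

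Beside BRG1, ERG lowered most plexins and moved the neuropilins apart. Of 29 members, 5 rose and 15 fell (background 45.4% called, 22.6% higher and 22.8% lower), with a median of -0.36 beside -0.00 over all genes. Of 9 plexins, 7 fell and the other two, PLXNA2 and PLXNC1, were not called. Of the falls, PLXNB3 lost its call in 4 of 11 alternatives (adjusted p up to 0.241) and PLXNA1 in 3 (up to 0.335).

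Of the ligands, SEMA3E had 3 and 7 reads in Empty and 24 and 37 with ERG (2.65 ± 0.51, adjusted p = 7.66e-05, or 3.40 without BRG1 Empty replicate 2). SEMA3G, a ligand of NRP2, rose from 1.77 and 2.13 to 3.80 and 4.25 CPM (1.09 ± 0.23, adjusted p = 0.000253). SEMA3F and SEMA4D rose by less (0.44 ± 0.10 and 0.29 ± 0.10). SEMA3B fell from 47.5 and 55.7 to 22.2 and 24.5 CPM (-1.09 ± 0.11, adjusted p = 1.43e-09), and SEMA3B-AS1 went from 4.06 and 4.34 to 2.40 and 2.29. SEMA6B fell from 69.2 and 71.4 to 36.6 and 34.7 CPM (-0.93 ± 0.08, adjusted p = 5.78e-11). Secreted semaphorins thus moved in both directions in the same libraries.

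PLXNA4 fell from 3.80 and 5.38 to 1.96 and 1.58 CPM (-1.33 ± 0.30, adjusted p = 0.000533). PLXNB1 fell from 81.4 and 88.4 to 47.2 and 52.6 (-0.72 ± 0.09, adjusted p = 3.76e-08) and PLXND1 from 127 and 121 to 74.6 and 85.8 (-0.58 ± 0.08, adjusted p = 6.44e-07). In all 3 genes the ERG libraries lay below the Empty libraries. Such separation of 2 libraries from 2, in either direction, was common. It was found for 22 of 29 members here and for 21 beside GFP, where 8 were called. Its share over all genes was not counted. NRP2 fell from 11.1 and 9.40 to 3.32 and 3.90 CPM (-1.46 ± 0.20, adjusted p = 2.88e-07). NRP1 went the other way, from 2.26 and 2.33 to 11 and 13 CPM (2.43 ± 0.20, adjusted p = 7.24e-12), with both ERG libraries above both Empty libraries.

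VEGF receptors that work with neuropilins rose in the same comparison. KDR, the main VEGF receptor of vessels, went from 1.10 ± 0.49 to 24.2 ± 5.1 CPM (4.51 ± 0.22, adjusted p = 2.17e-17). FLT4 went from 29.0 ± 0.86 to 102 ± 11 CPM (1.86 ± 0.09, adjusted p = 9.06e-18), and PGF, a growth factor that binds NRP1, from 2.37 ± 0.054 to 8.13 ± 0.20 (1.82 ± 0.18, adjusted p = 6.75e-10). Beside the all-gene shares of 22.6% higher and 22.8% lower, 6 of 13 co-receptors rose and 3 fell, 1 of 6 growth factors rose and 2 fell, and 7 of 31 effectors rose and 9 fell. Endothelial markers rose too, 6 of 7 tested with none lower, from a sum of 25.4 to 26.3 CPM to 71.1 to 84.5, and none was at 0 with ERG. Mesenchymal markers fell, 5 of 8, to a sum of 1541 to 1732 CPM. Their part in the members' changes was not tested.

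**Figure D4:**
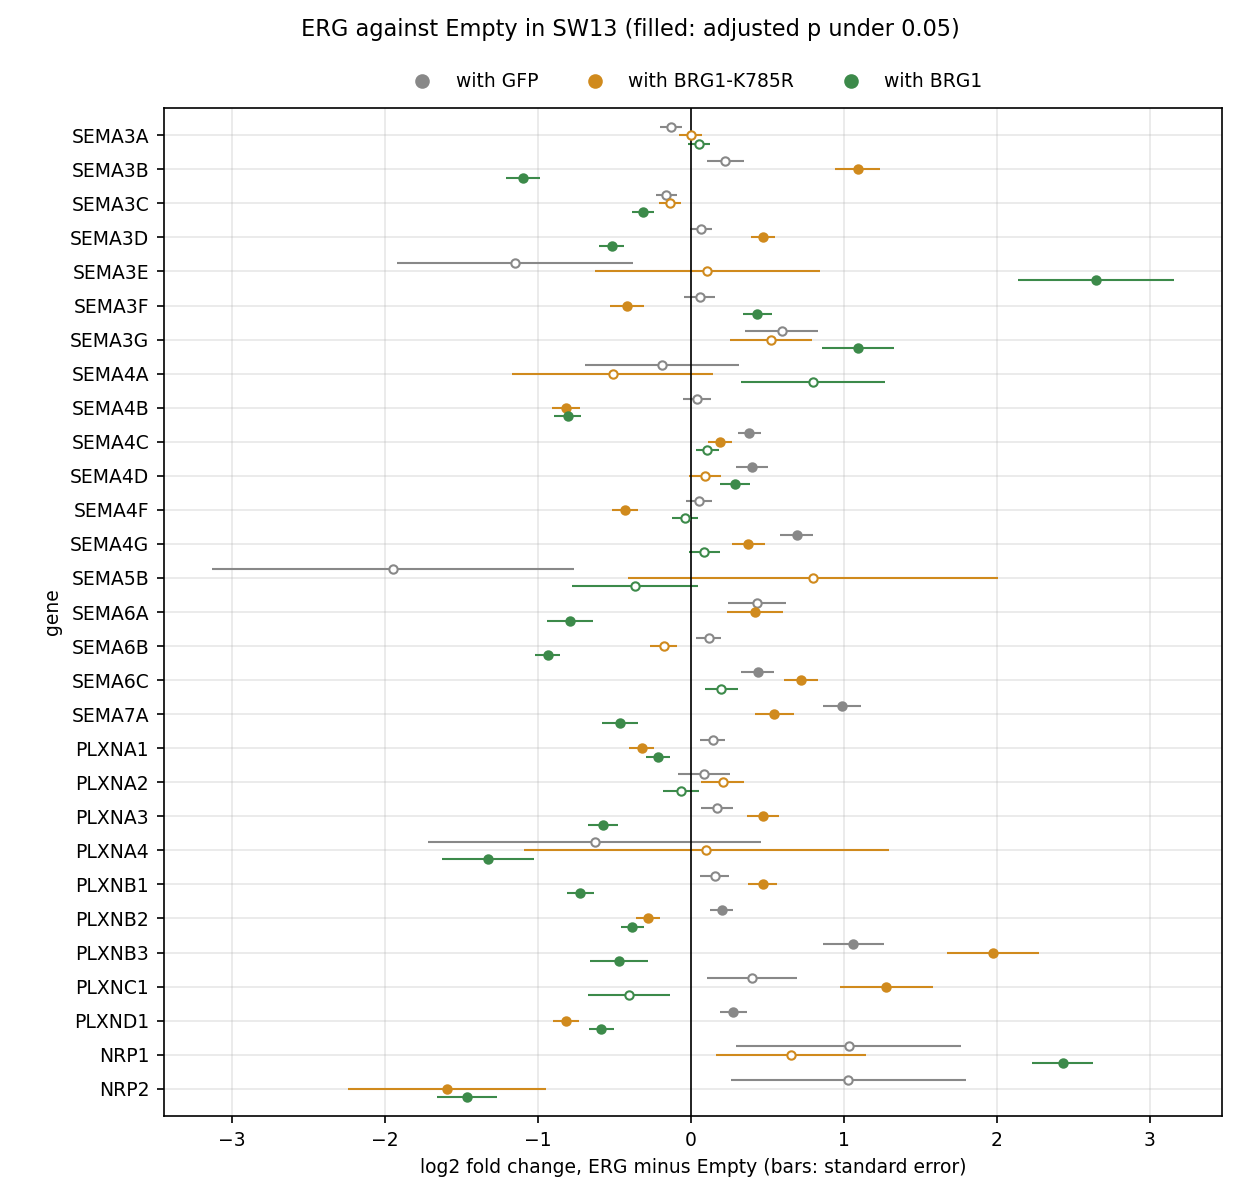
Log2 fold change of ERG against Empty (horizontal axis) for the 29 members tested in SW13 (vertical axis), beside GFP (grey), BRG1-K785R (orange) and BRG1 (green), with standard errors as bars and filled points where the adjusted p was under 0.05. Beside BRG1, NRP1 and SEMA3E lie far right of 0 and the plexins left of it.

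The difference of the ERG effect between backgrounds was tested itself. ERG itself stood at 2003 ± 204 CPM beside BRG1, 1597 ± 17 beside BRG1-K785R and 1530 ± 79.9 beside GFP. It was higher beside BRG1 than beside the mutant (0.35 ± 0.08, adjusted p = 0.000462) or GFP (0.35 ± 0.08, adjusted p = 0.000247). ARID1A changed with ERG as well, by -0.60 ± 0.07 beside BRG1, -0.66 ± 0.07 beside the mutant and 0.40 ± 0.07 beside GFP. The part of these levels in the differences was not tested. BRG1 and GFP differed in 17 of 29 members, 2 with a higher and 15 with a lower log2 effect beside BRG1 (background 37.8% called, 19.1% higher and 18.7% lower). The median difference was -0.58, beside -0.02 over all genes. BRG1 and BRG1-K785R differed in 14, 4 higher and 10 lower (background 46.2% called, 25.8% higher and 20.4% lower), with a median of -0.18 beside 0.05. On library totals, which moved the medians of all genes by -0.10 and -0.23, the splits were 1 and 16, and 3 and 15. Both tests share the BRG1 libraries.

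PLXNB1 is an example of a receptor with opposite effects: its log2 effect of ERG was -0.72 ± 0.09 beside BRG1 and 0.47 ± 0.09 beside the mutant, a difference of -1.19 ± 0.13 (adjusted p = 6.69e-09). SEMA3B showed the same order, with -1.09 ± 0.11 and 1.09 ± 0.15 (difference -2.19 ± 0.19, adjusted p = 6.25e-11). For NRP1 the effect beside BRG1 exceeded that beside the mutant by 1.77 ± 0.56 (adjusted p = 0.0103, or 0.206 without BRG1-K785R Empty replicate 1). Against the GFP background, where few NRP1 reads were found, the difference was not called (1.40 ± 0.88, adjusted p = 0.220).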

How the data were processed

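RNA was sequenced from 24 cultures, 2 per group. The authors deposited, per library, whole-number read counts per gene symbol, an unlabelled column of another unit that acts as gene length in bases, and RPKM. Recomputing RPKM from counts and that length gave the deposited RPKM to within a relative gap of 5e-06. STAR 2.3.1 and hg19 appear in the submitters' processing notes. How reads were assigned to genes, on which annotation and with which strand rule, is not given in the sources used here.

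Counts of each line were fitted together with edgeR 4.0.16 in R 4.3.3 (TMM factors, filterByExpr, quasi-likelihood test, two-sided), over 16791 genes in VCaP, 16993 in LNCaP and 17018 in SW13, with 3, 3 and 6 residual degrees of freedom. Members had to pass the same filter on low counts, so a member read in only 1 group passed through it. Adjusted p values are Benjamini-Hochberg over all genes tested. The SE is the log2 change over the root of F. Counting intervals are 95% Clopper-Pearson and cover counting error only, as does the floor of 3 counts. The fit was tested on simulated data. CPM used library totals of 19754265 to 41996681 counts. Promoter letters were searched on both strands of RefSeq windows (GRCh38.p14), whose coordinates are not those of hg19.

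Alternatives were RLE factors, library totals, no filter, DESeq2 1.42.0, only the compared groups, a replicate block, each library left out, and SW13 without the BRG1-K785R Empty group. Members with 2-fold or larger calls and at least 1 CPM in the higher group are named in full, with up to 2 genes per pathway list and comparison of 2-fold or more by smallest adjusted p. Other members and genes named were chosen after their values were seen. Members, lists and markers were chosen with earlier results of these data known. Of the marker lists, 5 immune genes summed to 2.69 to 35.7 CPM over the 24 libraries.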

Additional observations from a re-analysis of the deposited data

Results flagged for a closer look

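The results below stand out because the log2 effect of ERG against Empty in SW13 cells differed between backgrounds, by edgeR's test of the difference itself with Benjamini-Hochberg adjustment over all genes. Values are log2 effects beside BRG1 minus those beside the other construct, ± SE.

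Between BRG1 and GFP, 17 members differed, with adjusted p from 2.28e-08 to 0.0432, against 37.8% of all genes. Ligands with a higher effect beside BRG1 were SEMA3E (3.80 ± 0.94) and SEMA3F (0.38 ± 0.14). Ligands with a lower effect were SEMA3B (-1.32 ± 0.17), SEMA3D (-0.58 ± 0.11), SEMA4B (-0.85 ± 0.13), SEMA4C (-0.28 ± 0.11), SEMA4G (-0.60 ± 0.15), SEMA6A (-1.22 ± 0.24), SEMA6B (-1.05 ± 0.12) and SEMA7A (-1.45 ± 0.17). Plexins with a lower effect were PLXNA1 (-0.36 ± 0.12), PLXNA3 (-0.75 ± 0.14), PLXNB1 (-0.88 ± 0.13), PLXNB2 (-0.59 ± 0.11), PLXNB3 (-1.53 ± 0.27) and PLXND1 (-0.86 ± 0.12). NRP2 differed by -2.49 ± 0.79, but lost the call without GFP Empty replicate 2 (adjusted p = 0.0746) or GFP ERG replicate 1 (-1.11, adjusted p = 0.576), and was -3.16 without GFP ERG replicate 2. SEMA3E lost it without GFP Empty replicate 2 (2.78, adjusted p = 0.137) and was 4.55 without BRG1 Empty replicate 2. PLXNA1 lost it without GFP Empty replicate 2, GFP ERG replicate 2 or BRG1 ERG replicate 1, at -0.26 in the last case. SEMA3F lost it with DESeq2, on library totals and without any 1 of 5 libraries (both GFP Empty, GFP ERG replicate 1, BRG1 Empty replicate 2 and BRG1 ERG replicate 2), with 0.26 without GFP ERG replicate 1. SEMA4C lost it with no filter on low counts and without any 1 of 7 libraries, all but BRG1 ERG replicate 2.

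Between BRG1 and BRG1-K785R, 14 members differed, with adjusted p from 6.25e-11 to 0.0266, against 46.2% of all genes. Higher beside BRG1 were SEMA3E (2.54 ± 0.94), SEMA3F (0.85 ± 0.15), SEMA4F (0.39 ± 0.12) and NRP1 (1.77 ± 0.56). Ligands with a lower effect were SEMA3B (-2.19 ± 0.19), SEMA3D (-0.99 ± 0.11), SEMA6A (-1.21 ± 0.24), SEMA6B (-0.76 ± 0.12), SEMA6C (-0.52 ± 0.16) and SEMA7A (-1.01 ± 0.17). Plexins with a lower effect were PLXNA3 (-1.04 ± 0.15), PLXNB1 (-1.19 ± 0.13), PLXNB3 (-2.44 ± 0.36) and PLXNC1 (-1.68 ± 0.40). SEMA3E, read 3 to 37 times per BRG1 library, lost the call with DESeq2 and without either BRG1-K785R Empty library, BRG1-K785R ERG replicate 1, BRG1 Empty replicate 1 or BRG1 ERG replicate 2, and was 3.29 without BRG1 Empty replicate 2. NRP1 was 1.34 without BRG1-K785R Empty replicate 1 (adjusted p = 0.206). SEMA4F lost the call on library totals and without BRG1-K785R ERG replicate 2 (0.32) or BRG1 Empty replicate 2 (0.30). SEMA6C lost it without BRG1-K785R Empty replicate 2 (-0.38) or BRG1 Empty replicate 2 (-0.38).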

How the results depend on the processing

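Of 259 calls of members, differences of effects included, 194 held their side of the threshold under every alternative, 65 lost it in at least 1 and 0 reversed. Of the 99 calls of 2-fold or more, 87 held throughout. Scaling to library totals in place of TMM (trimmed mean of M values) factors moved the split of higher and lower calls in several comparisons, as given beside the counts. Leaving out 1 library at a time gave 5 to 8 members called and 2632 to 3873 genes for LNCaP ERG against Empty, 7 to 10 and 1987 to 3261 for ETV1 against Empty, 3 to 5 and 1003 to 1638 for ERG against ETV1, and 4 to 9 and 1743 to 3642 for SW13 ERG against Empty beside GFP. With all libraries the counts were 9 members and 5045 genes, 12 and 4439, 5 and 2441, and 8 and 4433. The lowest member counts came without LNCaP Empty replicate 1 (5 and 7), LNCaP ETV1 replicate 1 (3) and SW13 GFP Empty replicate 2 (4), with 5 without SW13 GFP ERG replicate 2. These fits use fewer samples, and any other cause was not tested. A fit with 1 sample left in a group assumes that it varies like the other groups.

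Samples with the same replicate number came from independent cultures, and correlations of their deviations from group means ran from -0.20 to 0.29, so the numbers were not taken as pairs. With a replicate block, 20 members were called for shARID1A against shCt, 21 for shARID1A against shERG, 11 for LNCaP ETV1 and 17 for SW13 ERG beside BRG1-K785R. The calls it lost were PLXND1, SEMA4C, SEMA4F and SEMA6A, in that order, and no other call of a member was lost.

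Depth limits the genes with few reads, among them NRP1, NRP2, PLXNA4 and SEMA5B in SW13 without BRG1 and SEMA3E in SW13, where 1 read is worth 0.0376 to 0.0506 CPM and fold changes hang on single reads.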
